A study of Homo sapiens with 4 samples.

Results

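Bone morphogenetic protein (BMP) ligands, receptors and antagonists were compared between control and RUNX3 KO HGC-27 cells. The genes were taken by symbol and numbered 10 of the 25559 gene symbols counted. They comprised the ligands BMP2, BMP4 and BMP7, INHBA (whose product forms activin A), the receptors BMPR1A and BMPR2, and the secreted antagonists NOG, CHRD, GREM1 and FST. HGC-27 is an established human line of gastric cancer origin. Poly(A) RNA was sequenced in 2 libraries from wild-type control cells and 2 from cells with RUNX3 knocked out (RUNX3 KO), with no treatment named for either. The KO cells had been made by lentiviral delivery of Cas9 with a guide against an exon of RUNX3, puromycin selection and single-cell cloning. The number of clones, and whether replicates were separate cultures, are not given in the sources used here, so the p-values below measure only the spread between these libraries.

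BMPs are secreted dimers of the TGF-beta superfamily. They assemble type I receptors such as BMPR1A with type II receptors such as BMPR2, and the type I kinase then phosphorylates SMAD1, SMAD5 and SMAD9, which enter the nucleus with SMAD4 and raise target genes such as the ID genes. Noggin, chordin and gremlin hold BMPs away from their receptors, while follistatin mainly binds activins. In the gut, BMP signals are known for restraining stem cells and for favouring differentiation, and antagonists made beneath the crypts or glands oppose them.

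Reads on genes ranged from 11731401 to 12110876 per library. The RUNX3 transcript was lower in the KO libraries but still counted, with 351 and 308 counts in control and 225 and 185 in RUNX3 KO libraries (log2 fold change -0.70). The study reported RUNX3 protein as absent from its KO cells by immunoblot, which these RNA counts do not measure. Of 6 gastric markers listed for the check of the cell type (CLDN18, TFF1, TFF2, MUC5AC, MUC6 and GKN1), none had more than 1 count in any library. Epithelial markers were sparse, with KRT19 at 0 throughout, EPCAM at 1 count or fewer, and 37 counts summed over the 6 markers in each control library against 109 and 130 in the RUNX3 KO libraries. KRT8 made up most of the RUNX3 KO sums, with 19 and 11 counts in control and 72 and 81 in RUNX3 KO libraries. CDH1 had 15 and 21 counts in control and 30 and 32 in RUNX3 KO libraries. KRT18 had 0 and 0 against 2 and 14, and CLDN4 had 2 and 4 against 5 and 3. Blood markers summed to 2 to 7 counts and endothelial markers to 1 to 4. VIM, the mesenchymal filament gene, had 57834 and 57486 counts in control and 33828 and 35307 in RUNX3 KO libraries. Of the other 2 mesenchymal markers, ZEB1 had a log2 fold change of -0.26 and CDH2 had at most 3 counts in any library. KRT8, CDH1, VIM and ZEB1 moved with the same contrast as the BMP genes, and their part in the results was not tested. In bulk RNA, fewer cells expressing a gene and less RNA per cell cannot be told apart.

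BMP4 was the only tested gene of the group that rose in RUNX3 KO cells, while BMP7, BMPR2 and NOG fell. BMP2 and BMPR1A did not pass the test. Counts were sufficient for a test in 6 of the 10 genes, namely BMP2, BMP4, BMP7, BMPR1A, BMPR2 and NOG, and CHRD, FST, GREM1 and INHBA were below the filter on low counts. In the quasi-likelihood test of edgeR, with p adjusted by Benjamini-Hochberg over all 12967 tested genes, 3 of the 6 were lower and 1 was higher at an adjusted p under 0.05. Across all tested genes, 48.9% passed the same threshold, 24.4% lower and 24.5% higher, so that a called gene was common in this comparison. The median log2 fold change was -0.38 over the 6 genes and -0.0021 over all tested genes. None of the 6 reached the study's criterion of a fold change of at least 2 with an unadjusted p of at most 0.05, in edgeR or in DESeq2, and 4 had an unadjusted p under 0.05. Among all tested genes, 6.12% met that criterion, 4.01% lower and 2.11% higher. The normalised levels of the 2 groups did not overlap in 5 of the 6 genes, against 72.7% of all tested genes.

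**Figure D1:**
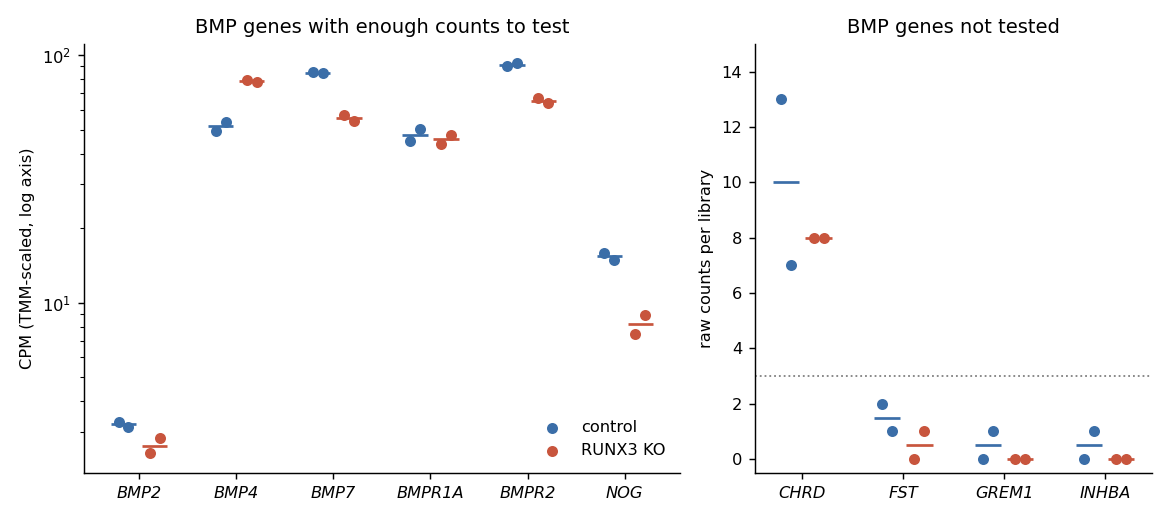
Levels of the 10 BMP genes in each library, as TMM-scaled CPM (log axis) for the 6 tested genes and as raw counts for the 4 others, with 1 point per library and a bar at the mean of the 2 libraries. BMP4 was higher in both RUNX3 KO libraries, BMP7, BMPR2 and NOG were lower in both, and the dotted line marks 3 counts.

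BMP4 encodes a BMP ligand with broad roles in gut and mesoderm development. It had 585 and 634 counts in control and 939 and 938 in RUNX3 KO libraries. Both RUNX3 KO libraries lay above both control libraries. As CPM, the read count scaled to a common library size with TMM factors, BMP4 rose from 51.6 ± 2.95 to 78.8 ± 1.09 (SD, n = 2 per group). The log2 fold change was 0.61 (edgeR adjusted p = 1.53e-16, standard error 0.0561), a 1.53-fold rise. A rise of at least this size was seen in 4.75% of all tested genes. BMP4 lies on chromosome 14 from 54416454 to 54425479 (hg19, minus strand), and its direction was opposite to that of the surrounding genes. Of the 40 nearest tested genes, 38 were lower and 2 (CDKL1 and OTX2, named after their values were seen) higher in RUNX3 KO cells, around a median of -0.24 in log2 fold change. Relative to that median, BMP4 was higher by 0.85 on the log2 scale. In the annotation, 506 bases of its exons also belong to a long noncoding RNA on the opposite strand, and whether reads were counted by strand is not given in the sources used here.

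The RUNX motif was looked for because the gene targeted in the KO cells encodes a transcription factor of this family. The search covered the 250 bases before each gene start listed by RefSeq, for the letters TGTGGT or TGCGGT on either strand. Of 35116 such windows in the table, 16.3% held at least 1 match. BMP4 has 3 starts in the table, and GENCODE lists others farther upstream. The window before the most upstream of the 3, at chr14:54421769-54422018 on the minus strand (RefSeq sequence, matched to GRCh37), is shown because it belongs to the ligand that rose, and it held no match:
BMP4 upstream window: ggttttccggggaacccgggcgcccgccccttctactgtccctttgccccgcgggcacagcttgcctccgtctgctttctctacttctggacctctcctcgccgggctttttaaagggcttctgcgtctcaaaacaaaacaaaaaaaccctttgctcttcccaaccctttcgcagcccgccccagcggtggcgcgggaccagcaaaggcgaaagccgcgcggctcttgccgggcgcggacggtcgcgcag
The windows of the other 2 starts each held 1 match, 41 and 43 bases before the start, in stretches that other transcripts of BMP4 include as exon. They are shown with 12 bases on each side and the motif in capitals, from chr14:54421230-54421259 and chr14:54420139-54420168:
BMP4 middle start: cgggggaaggagTGTGGTggtggtttaaaa
BMP4 downstream start: acagagcctgtcTGCGGTggagtctcatta
A match in these letters is a description of the window and does not show binding. RUNX3 binding itself was mapped by ChIP-seq in the study, mostly at sites distal to gene starts, and was not used here.

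BMP7, a further ligand of the family known from kidney and skeletal development, changed by nearly the same amount as BMP4 in the other direction. It had 1005 and 995 counts in control and 676 and 650 in RUNX3 KO libraries. Neither RUNX3 KO library came near the control range. BMP7 fell from 84.7 ± 0.574 to 55.7 ± 2.27 CPM (SD, n = 2 per group), a log2 fold change of -0.61 (edgeR adjusted p = 2.80e-17, standard error 0.0538). This was 1.52-fold lower, and 8.84% of all tested genes fell at least as much. It lies on chromosome 20 from 55743809 to 55841697 (minus strand), where 22 of the 40 closest tested genes were higher, around a median log2 fold change of 0.014. BMP7 had the smallest p of the group. Outside the BMP gene lists, the tested genes closest to it in level over the 4 libraries were SAMD11, TM9SF1 and GTPBP3, at Euclidean distances of 0.0686, 0.120 and 0.132 in log2 CPM. SAMD11 had 1034 and 992 counts in control and 697 and 665 in RUNX3 KO libraries. With 4 libraries in 2 groups, this distance measures a like level and a like fold change and nothing more.

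BMP2, which is closely related to BMP4, was expressed at a low level. It had 39 and 37 counts in control and 29 and 34 in RUNX3 KO libraries. The groups did not overlap, but the counts were few. The level was 3.22 ± 0.119 CPM in control and 2.64 ± 0.262 CPM in RUNX3 KO cells (SD, n = 2 per group). Its log2 fold change of -0.28 (edgeR adjusted p = 0.352, standard error 0.244) had a 95% interval from -0.77 to 0.20. A fall of the size seen for BMP7 lies inside that interval, so the p does not show that BMP2 was unchanged. BMP2 lies on chromosome 20 from 6748333 to 6760893 (plus strand).

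INHBA was at or under 1 count in every library, with 0 and 1 counts in control and 0 and 0 in RUNX3 KO libraries. At this depth 3 counts correspond to 0.248 to 0.256 CPM before TMM scaling, and no fold change was computed when both groups were at or under that limit.

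Because BMP4 and BMP7 moved in opposite directions, the make-up of BMP2, BMP4 and BMP7 among themselves shifted. For this, each gene's level was taken as CPM per kilobase of its MANE Select transcript. BMP4 made up 53.7% and 56.0% of the summed BMP2, BMP4 and BMP7 level in control and 73.4% and 73.9% in RUNX3 KO libraries. BMP7 took 44.3% and 42.2% in control and 25.4% and 24.6% in RUNX3 KO libraries. BMP2 stayed under 2% in all 4 libraries. The mean share of BMP4 was 54.9% ± 1.61 in control and 73.7% ± 0.385 in RUNX3 KO cells (SD, n = 2 per group), a difference of 18.8 percentage points. The summed level of the 3 ligands per kilobase was 48.7 ± 1.35 in control and 55.4 ± 1.05 in RUNX3 KO cells (SD, n = 2 per group). The share differed by more than the spread of the libraries, but with 2 libraries per group the exact permutation test, taken two-sided, cannot give a p below 0.333, which is the value obtained. With the length of all annotated exons in place of the MANE Select transcript, the BMP4 share was 50.2% in control and 69.8% in RUNX3 KO cells. The mean BMP2 share by that length was 2.74% in control and 2.05% in RUNX3 KO cells.

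**Figure D2:**
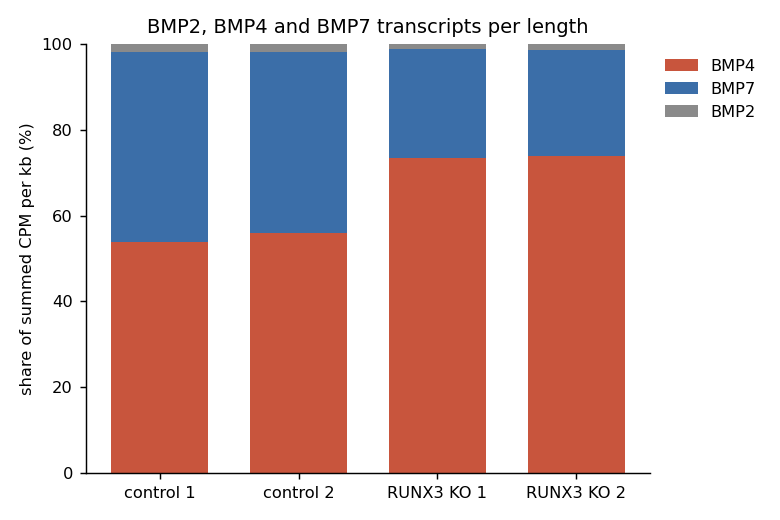
Share of BMP2, BMP4 and BMP7 in their summed CPM per kilobase of MANE Select transcript (vertical axis, percent), with 1 bar per library. BMP4 took 53.7% and 56.0% in control and 73.4% and 73.9% in RUNX3 KO libraries.

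Of the receptors, BMPR2 fell while BMPR1A did not pass the test. BMPR2, the type II receptor kinase dedicated to BMPs, had 1063 and 1091 counts in control and 791 and 768 in RUNX3 KO libraries. Both RUNX3 KO libraries lay below both control libraries. It fell from 91.2 ± 1.70 to 65.5 ± 2.22 CPM (SD, n = 2 per group), a log2 fold change of -0.48 (edgeR adjusted p = 1.14e-13, standard error 0.0511). This was 1.39-fold lower, a fall reached or exceeded by 12.3% of all tested genes. BMPR2 lies on chromosome 2 from 203241050 to 203432474 (plus strand), and the median log2 fold change of the 40 closest tested genes was -0.015. The 250 bases before its start, at chr2:203240800-203241049 on the plus strand (RefSeq sequence, matched to GRCh37), held 2 matches to the RUNX letters, and 1.63% of all windows held 2 or more. They are shown in capitals because BMPR2 is the receptor that fell:
BMPR2 upstream window: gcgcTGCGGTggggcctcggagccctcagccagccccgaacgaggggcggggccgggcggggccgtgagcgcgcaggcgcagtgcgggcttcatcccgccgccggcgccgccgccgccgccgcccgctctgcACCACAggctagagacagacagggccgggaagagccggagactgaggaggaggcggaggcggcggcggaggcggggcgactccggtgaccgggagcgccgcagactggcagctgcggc
The matches begin 246 and 118 bases before the start.

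BMPR1A, a type I receptor kinase for BMP2 and BMP4, had 531 and 594 counts in control and 516 and 573 in RUNX3 KO libraries. The groups overlapped. The level was 47.7 ± 3.79 CPM in control and 45.7 ± 2.79 CPM in RUNX3 KO cells (SD, n = 2 per group). The log2 fold change was -0.060 (edgeR adjusted p = 0.478, standard error 0.0666), with a 95% interval from -0.19 to 0.072, which leaves out a fall as large as that of BMPR2. BMPR1A lies on chromosome 10 from 88516353 to 88692582 (plus strand). GENCODE lists processed pseudogenes of BMPR1A, and reads without a unique placement were set apart in the tables, so that its level is uncertain.

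Of the antagonists, NOG was expressed and fell, and the other 3 were scarce. NOG encodes noggin, which binds BMP dimers and blocks both receptor sites. It had 187 and 176 counts in control and 88 and 107 in RUNX3 KO libraries. The groups were well apart, and the RUNX3 KO libraries differed from each other more than the control libraries did. NOG fell from 15.4 ± 0.654 to 8.18 ± 1.02 CPM (SD, n = 2 per group). Its log2 fold change of -0.91 (edgeR adjusted p = 2.99e-09, standard error 0.128) was the largest in size among the 6 genes tested here. This was 1.88-fold lower, and 4.69% of all tested genes fell at least as much. Without RUNX3 KO replicate 2 the log2 fold change was -1.04 and passed 2-fold. NOG lies on chromosome 17 from 54671060 to 54672972 (plus strand), where 25 of its 40 nearest tested genes were higher, with a median log2 fold change of 0.046.

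CHRD encodes chordin, an antagonist that BMP1 and the tolloid-like proteases cleave. It had 13 and 7 counts in control and 8 and 8 in RUNX3 KO libraries. The groups overlapped. Summed over libraries, 20 control counts stood against 16 in RUNX3 KO cells, a ratio of 1.28 with an exact 95% counting interval of 0.630 to 2.64. In the annotation, 361 exonic bases of CHRD are shared with THPO on the opposite strand. FST had 2 and 1 counts in control and 0 and 1 in RUNX3 KO libraries. GREM1 had 0 and 1 in control and 0 and 0 in RUNX3 KO libraries. FST and GREM1 were thus at or under 3 counts everywhere and gave no fold change. The windows before the starts of FST and INHBA held a RUNX match each, those of BMPR1A, CHRD and GREM1 held none, and BMP2, BMP7 and NOG had no entry in the table. The genes with a match were therefore BMP4, which rose, BMPR2, which fell, and FST and INHBA, which were scarcely counted.

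**Figure D3:**
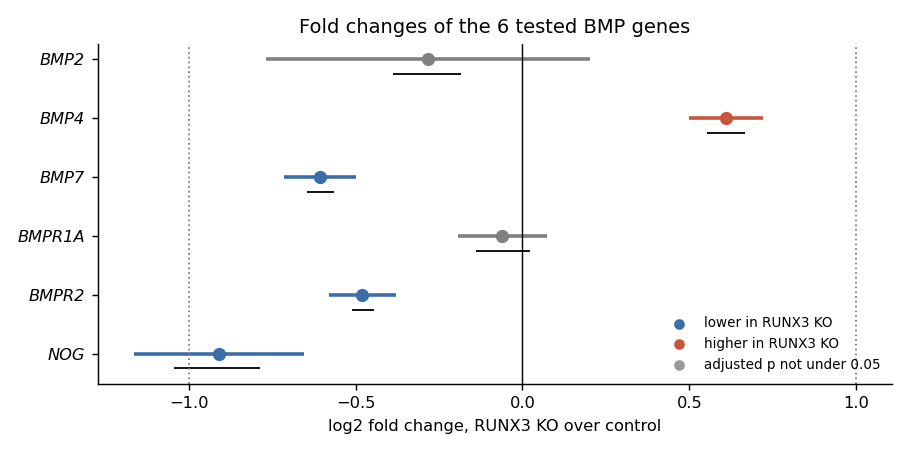
Log2 fold change of RUNX3 KO over control (horizontal axis) for the 6 tested BMP genes, with the 95% interval of the fit as a coloured line and the range over all 13 alternative fits as a thin black line below it. The intervals of BMP4, BMP7, BMPR2 and NOG exclude 0, and the dotted lines mark 2-fold.

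Per kilobase of MANE Select transcript, the 6 tested genes spanned a wide range. In control cells the order of mean CPM per kilobase was BMP4 (26.7), BMP7 (21.1), NOG (8.04), BMPR2 (7.56), BMPR1A (7.43) and BMP2 (0.908). BMPR1A overlapped BMPR2, its neighbour in that order, and NOG in its library values, while NOG and BMPR2 did not overlap. In RUNX3 KO cells the order was BMP4 (40.8), BMP7 (13.8), BMPR1A (7.12), BMPR2 (5.42), NOG (4.28) and BMP2 (0.745), with no overlap between neighbours. The places of NOG and the receptors depended on the length used. Per kilobase of all annotated exons, the control order of the 6 genes was the same but BMPR1A (4.73) lay below NOG (8.04) and BMPR2 (7.30) without overlap. On that scale BMPR1A (4.54) came below BMPR2 (5.24) in RUNX3 KO cells and overlapped NOG (4.28). The ratio of BMP4 to NOG raw counts, which is not per length and so compares the groups rather than the genes, was 3.13 and 3.60 in control and 10.7 and 8.77 in RUNX3 KO libraries. The ratio of BMP7 to NOG counts was 5.37 and 5.65 in control and 7.68 and 6.07 in RUNX3 KO libraries.

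**Figure D4:**
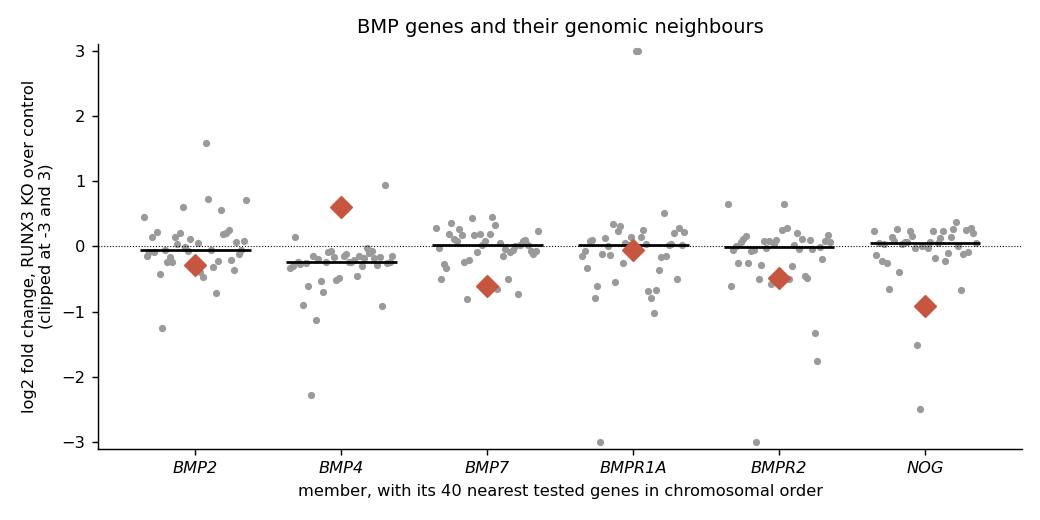
Log2 fold changes (vertical axis) of the 6 tested BMP genes as diamonds and of the 40 nearest tested genes of each as grey points in chromosomal order, with a line at the neighbours' median. BMP4 stood at 0.61 among neighbours with a median of -0.24, whereas the neighbours of the other 5 genes had medians between -0.051 and 0.046.

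The rest of the BMP and activin pathway was read from lists of 76 symbols, of which 75 were in the tables and 47 were tested. Of the 47, 21 were lower and 11 higher in RUNX3 KO cells by edgeR's adjusted p, and 15 did not pass, with a median log2 fold change of -0.085. Of all tested genes, 24.4% were lower and 24.5% higher by the same threshold, and 48.9% passed in all, around a median of -0.0021. Without RUNX3 KO replicate 1, 12 pathway genes were lower and 6 higher, and 22.8% of all tested genes passed. Without RUNX3 KO replicate 2, 9 were lower and 5 higher, and 20.1% of all tested genes passed. With DESeq2, 14 were lower and 6 higher, and 25.2% of all genes with an adjusted p passed. With an adjusted p under 0.05 and a fold change of at least 2, which 6.06% of all tested genes had, 6 were lower and 2 were higher. Genes named below that did not reach 2-fold, other than the ID genes, were chosen after their values were seen.

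Of 7 tested target genes, 5 fell, none rose and 2 did not pass, with a median log2 fold change of -0.62, against 24.4% lower and 24.5% higher among all tested genes. HEY1, a transcriptional repressor, had 224 and 228 counts in control and 80 and 94 in RUNX3 KO libraries, a log2 fold change of -1.39 (standard error 0.124). MSX1, a homeobox factor, had 681 and 613 against 291 and 294 counts, a log2 fold change of -1.16 (standard error 0.0739). MSX2 and ATOH8 fell by 0.47 and 0.62 on the log2 scale. The ID genes, which encode dominant-negative partners of E proteins and are the standard readout of BMP signalling, did not move together. ID2 fell from 94.5 ± 1.83 to 47.3 ± 3.41 CPM (SD, n = 2 per group), a log2 fold change of -0.999 (standard error 0.0551). ID1 had 1574 and 1572 counts in control and 1507 and 1487 in RUNX3 KO libraries, a log2 fold change of -0.085 (edgeR adjusted p = 0.0765, standard error 0.0406). It passed the threshold when libraries were scaled by library size alone or by upper quartile. ID3 had 2102 and 2163 against 2231 and 2220 counts, a log2 fold change of 0.048 (edgeR adjusted p = 0.267, standard error 0.0356). ID4 had at most 3 counts in any library. Several of these targets also answer to other signals, such as Notch for HEY1.

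Among further secreted antagonists and modulators, 4 of 9 tested genes fell and 4 rose, with a median log2 fold change of 0.15, where 24.4% of all tested genes were lower and 24.5% higher. BMPER, a chordin-like BMP-binding protein, had 315 and 284 counts in control and 630 and 636 in RUNX3 KO libraries, a log2 fold change of 1.07 (edgeR adjusted p = 2.67e-23, standard error 0.0733). SOST, which encodes sclerostin, had 34 and 22 counts in control and 2 and 1 in RUNX3 KO libraries. Summed, the control to RUNX3 KO ratio was 19.1, with an exact 95% counting interval of 6.21 to 95.4, and the fitted log2 fold change moved from -4.13 to -3.11 with a prior count of 2. SOSTDC1 and FSTL3 rose by 0.68 and 0.29 on the log2 scale. FSTL1, a follistatin-like secreted glycoprotein, had 4631 and 4624 counts in control and 4348 and 4485 in RUNX3 KO libraries and fell by 0.081.

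All 6 listed proteases that cleave chordin or BMP precursors were tested and all passed, with 3 lower and 3 higher, where 48.9% of all tested genes passed. TLL1, a tolloid-like chordin protease, rose from 126 and 131 counts to 270 and 303, a log2 fold change of 1.14 (standard error 0.108). TLL2 fell from 32 and 22 counts to 13 and 10, a log2 fold change of -1.24 (standard error 0.339), and lost its call with DESeq2 and without control replicate 1, RUNX3 KO replicate 1 or RUNX3 KO replicate 2 (adjusted p from 0.000874 to 0.158 over the alternatives). PCSK5, a proprotein convertase, fell from 58 and 51 counts to 13 and 11, a log2 fold change of -2.18 (standard error 0.283). FURIN and PCSK6, which are convertases as well, rose by 0.52 and 0.61. Their nearest tested genes were also higher, with medians of 0.67 and 0.62, and the part of this in their rise was not tested.

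Of the remaining receptors and co-receptors, 5 of each were tested, and 1 receptor and 2 co-receptors fell while 1 of each rose, where 48.9% of all tested genes passed. ACVR1, a type I receptor that binds BMP7, fell by 0.70 on the log2 scale, from 136 and 117 counts to 69 and 88. BMPR1B, a type I receptor close to BMPR1A, rose by 0.50, from 86 and 70 counts to 104 and 118. ACVR1B, ACVR2A and ACVR2B did not pass, with log2 fold changes of 0.053, -0.26 and -0.035. BAMBI, a pseudoreceptor that BMP signalling raises, fell by 0.46. RGMA, a BMP co-receptor, had 16 and 10 counts in control and 2 and 8 in RUNX3 KO libraries, a log2 fold change of -1.37 (edgeR adjusted p = 0.0169, standard error 0.497). The call of RGMA was lost with DESeq2, without a filter and without control replicate 1, RUNX3 KO replicate 1 or RUNX3 KO replicate 2 (adjusted p from 0.00750 to 0.355 over the alternatives). Its log2 fold change was -0.72 without RUNX3 KO replicate 1 and -2.63 without RUNX3 KO replicate 2. The tested genes nearest to RGMA had a median of 0.66, and relative to it RGMA was at -2.03.

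Among the SMADs and their ubiquitin ligases, 3 of 10 fell, 2 rose and 5 did not pass, all by less than 2-fold, a share passing that was close to the 48.9% of all tested genes. The BMP-specific SMAD5 and SMAD9 fell by 0.20 and 0.30 and SMAD1 was at 0.076, while the inhibitory SMAD7 fell by 0.54. SMAD2, 1 of the 2 that rose, was at 0.17, and the highest value of this list was 0.31. SMAD4 was at 0.019 on the same log2 scale. Of 23 further ligands of the family, 5 were tested and 3 fell, against 24.4% of all tested genes. INHBE and INHBB, which encode activin subunits, fell by 0.99 and 0.64, and GDF11 fell by 0.17. BMP5, a relative of BMP7, had 326 and 315 counts in control and 301 and 337 in RUNX3 KO libraries and did not pass (log2 fold change -0.020). Among the ligands that were not tested, 9 were listed at 0 in all libraries.

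**Figure D5:**
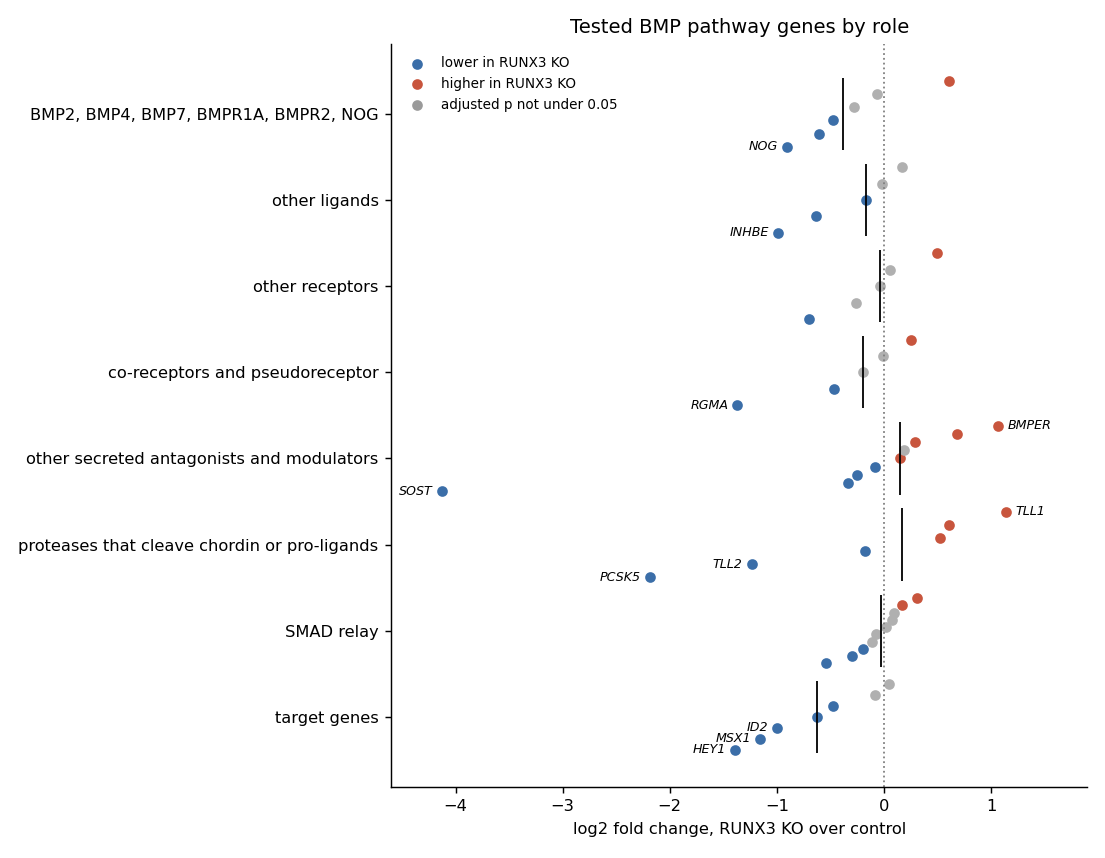
Log2 fold change of RUNX3 KO over control (horizontal axis) for the 6 tested BMP genes and the 47 other tested pathway genes, grouped by role, with a black line at the median of each group and names for changes of at least 0.9. Target genes lay lowest with a median of -0.62, and the fitted value of SOST (-4.13) rested on 3 counts in the RUNX3 KO libraries.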

How the data were processed

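RNA-seq libraries of HGC-27 cells (2 control, 2 RUNX3 KO) were used as the raw counts per gene symbol that the authors deposited, without normalization. The methods name STAR and featureCounts with GENCODE on hg19, whereas the submitters' processing notes name HISAT2 2.1.0 and HTSeq on hg19, and the tables close with 5 rows in the form of HTSeq. These rows, 25.9% to 28.1% of all counts, were left out. Media and RNA extraction also differ between methods and labels.

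Genes were kept by filterByExpr (minimum count 10, minimum total 15), scaled by TMM and compared with edgeR 4.0.16 in R 4.3.3 (glmQLFit and glmQLFTest, prior count 0.125, no replicate block), with Benjamini-Hochberg adjustment over 12967 genes. The biological coefficient of variation was 1.45%, and libraries of a group differed by little more than counting noise (chi-square per degree of freedom 1.22 and 1.18). The steps were also run on simulated counts in which far fewer genes changed than were called here. That run does not test the scaling in this contrast. Standard errors were derived from the fold change and the F statistic of the fit. Floors (3 counts) and counting intervals (95%) cover counting error only. Positions came from GENCODE on GRCh37, with 21766 symbols matched. The genes and lists were chosen with earlier results of these data known. The 10 BMP genes, pathway genes past 2-fold and the ID genes were named by rule. Alternatives were other scalings, DESeq2 1.42.0, limma-voom 3.58.1, other filters, a prior count of 2, a replicate block, subtraction of the neighbours' median and each library left out. The exon length was added after seeing the data.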

Additional observations from a re-analysis of the deposited data

How the results depend on the processing

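BMP4, BMP7, BMPR2 and NOG kept their direction and an adjusted p under 0.05 in all 13 alternative fits, the largest adjusted p being 0.0279, for NOG. BMP2 and BMPR1A passed in none. BMPR1A changed sign without control replicate 2 (0.021) and without RUNX3 KO replicate 1 (0.0027), a range of -0.14 to 0.021 with each library left out. The number of the 10 genes lower by at least 2-fold ranged from 0 to 1 with each library left out. Of the other pathway genes, leaving out a library gave 9 to 21 lower, 5 to 10 higher and 1 to 2 higher by at least 2-fold, while 20.1% to 42.1% of all tested genes passed in those fits. DESeq2 gave 6 higher, with 25.2% of all genes with an adjusted p passing (the cause was not tested). With all annotated exons as the length, the BMP4 share was 50.2% in control and 69.8% in RUNX3 KO cells.

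With the replicate number as a block, 3 of the BMP genes were lower and 1 higher, and 21 and 11 of the other pathway genes, as without it. Deviations from the group means of control replicate 1 and RUNX3 KO replicate 1 correlated at 0.026 across genes. With libraries of a group close to counting noise, this value does not show whether same-numbered libraries shared a culture or batch. Another scaling shifted the median of all genes by at most 0.021. Low counts limit what can be said of BMP2, CHRD, FST, GREM1 and INHBA.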
